A study of Mus musculus with 4 samples.

Results

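The genes described here were 10 transcription factors of the neural crest and of the mesenchymal transition: Sox9, Pax3, Tfap2a, Msx1, Msx2, Ets1, Snai2, Twist1, Zeb1 and Zeb2. They were found by gene symbol in a table of 15768 mouse genes that lists only genes with an estimated read count in at least 1 of the 4 libraries. Of the 10 factors, 9 had a row, and all 9 passed the filter on low counts. Msx2 had no row in the gene table used here and was not analysed. RNA came from JoMa1.3 cells, a conditionally immortalised line of mouse cells that the labels call neural crest stem cells, grown with growth factors and chick embryo extract. In 2 libraries, labelled as genotype WT, the cells had received a pool of non-targeting siRNAs, called control siRNA here. In the other 2, labelled as Lkb1 knockdown, they had received a pool of siRNAs against Stk11, the gene that encodes the kinase LKB1. The siRNA concentration was 60 nM and the time after transfection 72 h in both groups. Transfection used either of 2 reagents, and their assignment to the cultures is not stated. Each of the 2 batches contributed 1 control and 1 knockdown library. All 4 libraries came from the same cell line, and nothing states that the cultures were separate apart from a number and a batch, so the p-values describe these libraries only. In the edgeR fits with both siRNA and batch as terms, the p-values rest almost wholly on a spread pooled over genes.

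Neural crest cells arise at the border of the neural plate, lose their epithelial contacts, migrate, and form neurons and glia of the peripheral nervous system, melanocytes, and the cartilage and bone of the face. Border factors such as Pax3, Msx1, Msx2 and Tfap2a act first and switch on crest specifiers such as Sox9, Ets1 and Snai2. Snai2, Twist1, Zeb1 and Zeb2 belong to the families that repress epithelial genes such as the cadherin gene Cdh1 and drive the epithelial to mesenchymal transition, in the crest as in tumours. Lines of crest cells are often identified by such factors, together with Sox10 and Foxd3.

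Some sequences show how far related members and isoforms could be told apart in these data. They were read from GENCODE transcripts on the GRCm38 build, while the deposited values were made on GRCm39. The zinc finger repressors Snai2 and its paralog Snai1 begin with nearly the same coding sequence, which encodes the short repressor domain at the start of both proteins. Capitals mark the bases that differ. The Snai2 stretch lies at chr16:14705974-14706000 and the Snai1 stretch at chr2:167538290-167538316, both on the plus strand and in coding exons.
Snai2: atgccgcgctccttcctggtcaAgaaA
Snai1: atgccgcgctccttcctggtcaGgaaG
Over these 27 bases the pair is identical at 25. The longest run of bases that the transcripts of Snai2 and Snai1 share is 23 bases long, which is shorter than the read length of 150 bp. The basic helix-loop-helix factors Twist1 and Twist2 also share at most 23 bases in a row. That run is coding and is shown here in lower case throughout, because no base differs. It lies at chr12:33958380-33958402 in Twist1 and at chr1:91801891-91801913 in Twist2, on the plus strand.
Twist1 and Twist2: ctgcgcaagatcatccccacgct
The longest shared run was 29 bases for Tfap2a and Tfap2b, 19 bases for Ets1 and Ets2, and 23 bases for Zeb1 and Zeb2. In every pair the shared run was thus shorter than a read.

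Before the factors, the siRNA target was examined. The normalised count of Stk11, in counts scaled to the library by TMM (CPM), was 121.5 and 117.9 in the control siRNA libraries and 81.4 and 82.02 in the Lkb1 siRNA libraries. The difference was -0.55 on the log2 scale (SE 0.0659), a change of -31.8% with a 95% interval from -38.4 to -24.4%, and it passed edgeR's quasi-likelihood test (adjusted p = 0.0378). With library size scaling it was -0.52 and was not called by edgeR (adjusted p = 0.0633). Without a batch term, limma did not call Stk11 at either of its settings (adjusted p = 0.118 and 0.134), while DESeq2 did (adjusted p = 3.9e-05). With batch as a term, Stk11 was called by edgeR (adjusted p = 1.28e-22), DESeq2 (adjusted p = 4.9e-06) and limma on log2(FPKM + 1) (adjusted p = 0.00209). The libraries held 17426719 to 19324675 counts. Markers of other cell types were low, with summed FPKM (fragments per kilobase of transcript, scaled to the library) of 1.87 to 3.26 for 8 melanocyte genes, 2.64 to 3.48 for 8 epithelial genes and 4.24 to 6.21 for 9 endothelial and blood genes. The 13 neuronal genes summed to between 20.9 and 32.6 FPKM. The 11 Schwann and glial genes summed to between 68.3 and 100.1 FPKM, most of it from Pmp22, and S100b, Mal, Sox10 and Fabp7 had no row in the table used here. Of 17 surface and progenitor markers of the crest, Cd44, Pdgfrb and Nes were all above 25 FPKM in every library. Ngfr, the neurotrophin receptor used to sort crest cells, lay between 0.51 and 0.80 FPKM, the integrin gene Itga4, the endothelin receptor gene Ednrb and L1cam lay at no more than 0.03 FPKM, and Ret and Kit had no row. Of the 17 markers, 7 reached 1 FPKM in at least 1 library, 7 lay below 1 FPKM in every library and 3 had no row. The listed markers were thus only partly present.

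All 9 factors with a row were expressed above 1 FPKM in every library, the level taken here as the limit for expression, and their control means spanned a 25.5-fold range. FPKM is relative to gene length, so it allows levels of different genes to be compared. Snai2 was the most abundant of the factors, above 88.4% of the listed genes. The controls held 53.1 and 53.3 FPKM and the knockdown libraries 52.5 and 44.6 FPKM, so that the batch 2 knockdown library stood below the other 3. Twist1, which works as a dimer with E proteins, came next, with 29.8 and 30.7 FPKM in the controls and 33.5 and 30.6 FPKM after Lkb1 siRNA. Its groups overlapped.

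Ets1, an ETS-domain factor of the cranial crest, Pax3, a paired-box factor of the border and of melanocyte and neural precursors, and Zeb1, a zinc finger and homeodomain repressor, formed the middle of the order. Ets1 was at 19.2 and 17.2 FPKM in the controls and 18.7 and 17.5 FPKM after Lkb1 siRNA, with the higher value of each group in batch 1. Pax3 was at 14.4 and 17.8 FPKM in the controls and 18.04 and 19.3 FPKM after Lkb1 siRNA, so that both knockdown libraries lay above both controls. Zeb1 was at 15.2 and 14.7 FPKM in the controls and 15.7 and 16.5 FPKM after Lkb1 siRNA. The ranges of Ets1 and Pax3 overlapped over the 4 libraries, as did those of Pax3 and Zeb1, so the order of these neighbours was not resolved. No other neighbours in the order overlapped.

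Sox9, an SRY-related factor that specifies crest and later drives cartilage formation, was at 12.3 and 12.2 FPKM in the controls and 14.2 and 12.9 FPKM after Lkb1 siRNA. Zeb2, which is required for crest migration and for the enteric nervous system, was at 6.64 and 7.75 FPKM in the controls and 6.97 and 7.48 FPKM after Lkb1 siRNA. Zeb1 exceeded Zeb2 in every library, by 1.90- to 2.28-fold.

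The border factors Msx1 and Tfap2a were the lowest. Msx1, a homeodomain repressor, was at 2.77 and 3.15 FPKM in the controls and 2.99 and 3.07 FPKM after Lkb1 siRNA. Tfap2a, which encodes the AP-2 alpha protein, was at 1.91 and 2.26 FPKM in the controls and 1.90 and 1.85 FPKM after Lkb1 siRNA, above 35.1% of the listed genes. Its paralog Tfap2b, with 33.5 and 38.3 FPKM in the controls and 35.8 and 37.5 FPKM after Lkb1 siRNA, exceeded it by 16.9- to 20.3-fold. Paralogs of other members were closer in level. Twist2 exceeded Twist1 by 1.43- to 1.82-fold, Ets2 exceeded Ets1 by 1.10- to 1.35-fold, and Snai2 exceeded Snai1 by 1.91- to 2.60-fold.

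**Figure D1:**
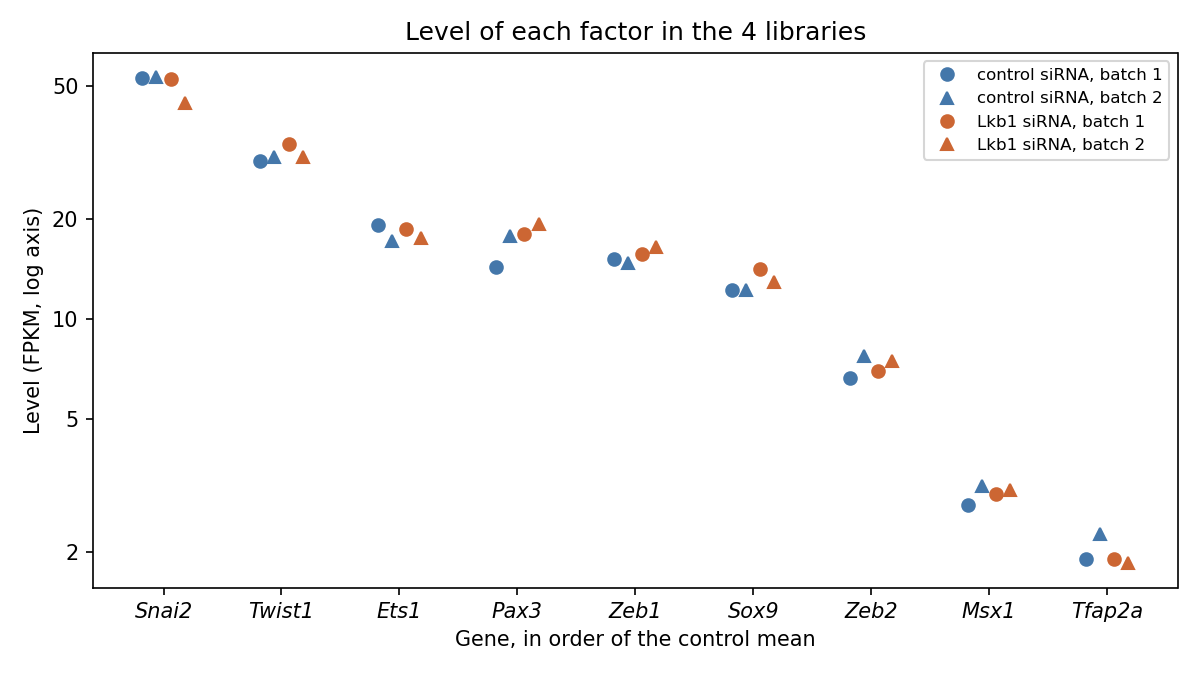
Level of the 9 factors with a row, in FPKM on a log axis, in order of the control mean; each point is 1 library, coloured by group and shaped by batch. Snai2 is highest, between 44.6 and 53.3 FPKM, and Tfap2a lowest, between 1.85 and 2.26 FPKM; the points of Ets1, Pax3 and Zeb1 overlap along the axis.

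None of the 9 factors passed the test of Lkb1 siRNA against control siRNA, in which 0.0818% of the 12222 genes tested were called by edgeR (Benjamini-Hochberg adjusted p under 0.05), 0.0327% higher and 0.0491% lower. No factor had an unadjusted p under 0.05 in that test, and neither DESeq2 nor limma called a factor with or without the batch term. The mean was higher for 4 factors and lower for 5, with a median log2 fold change of -0.0045 beside 4.9e-04 over all genes tested. In a fit with the batch as a replicate block, which compares the libraries within each batch, edgeR called 13.6% of all genes tested and 2 of the 9 factors, Pax3 and Snai2. The libraries leave little to estimate the spread of each gene in that fit, so its small p-values rest on the spread pooled over genes.

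Pax3 was 54.8 ± 7.53 CPM (SD, n = 2) with control siRNA and 62.6 ± 3.23 CPM (SD, n = 2) with Lkb1 siRNA. The libraries were at 49.5 and 60.1 CPM in the controls and 60.3 and 64.8 CPM after Lkb1 siRNA, so that the lower knockdown library was next to the higher control. The difference was 0.19 on the log2 scale (SE 0.0982), a change of 14.2% with a 95% interval from -2.04 to 33.1%, and edgeR's adjusted p was 0.507. With the replicate block the difference was also 0.19 (SE 0.0614) and edgeR called it (adjusted p = 0.0177). Within batch 1 the difference was 0.28 and within batch 2 it was 0.11, both higher after Lkb1 siRNA. The call was not made by DESeq2 or limma with the same block, where the adjusted p was 0.667 and 0.0962. Without the batch 1 control, the lowest library, the unblocked difference was 0.06, and without the batch 2 control it was 0.34.

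Snai2 was 93.7 ± 1.07 CPM (SD, n = 2) with control siRNA and 83.3 ± 9.73 CPM (SD, n = 2) with Lkb1 siRNA. The controls, at 94.4 and 92.9 CPM, were close together, whereas the knockdown libraries, at 90.2 and 76.4 CPM, were apart, and the groups did not overlap. The difference was -0.17 on the log2 scale (SE 0.0857), a change of -11.1% with a 95% interval from -22.2 to 1.62%, and edgeR's adjusted p was 0.503. With the replicate block it was -0.17 (SE 0.0542) and edgeR called it (adjusted p = 0.0157). The difference was -0.07 within batch 1 and -0.28 within batch 2, so most of it lay in batch 2. With the same block the adjusted p was 0.655 in DESeq2 and 0.230 in limma. Without the batch 2 knockdown library the unblocked difference was -0.05, and without the batch 1 knockdown library it was -0.29. Its paralog Snai1 did not pass either fit, with a difference of 0.07 (SE 0.0939) and an adjusted p of 0.823 in edgeR, or 0.614 with the replicate block.

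Sox9 and Tfap2a also had groups that did not overlap, without a call in either fit. Sox9 was 47.7 ± 0.789 CPM (SD, n = 2) with control siRNA and 51.6 ± 3.47 CPM (SD, n = 2) with Lkb1 siRNA, with a difference of 0.11 on the log2 scale and a 95% interval from -0.07 to 0.29. Tfap2a was 6.40 ± 0.633 CPM (SD, n = 2) with control siRNA and 5.62 ± 0.104 CPM (SD, n = 2) with Lkb1 siRNA, with a difference of -0.19 and a wider interval, from -0.57 to 0.20. The adjusted p of edgeR was 0.633 for Sox9 and 0.718 for Tfap2a, and with the replicate block it was 0.264 and 0.486. In all, 4 of the 9 factors had groups that did not overlap, Sox9 and Pax3 above and Tfap2a and Snai2 below, while 42.7% of all genes tested were in that state, 21.2% above and 21.4% below. The share among the factors is near that background.

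The remaining 5 factors lay closer to no difference. For Ets1 the log2 difference was -0.04, with a 95% interval from -0.23 to 0.14, and for Twist1 it was 0.04, from -0.14 to 0.23. For Zeb1 it was 0.06, from -0.10 to 0.22, and for Zeb2 it was -0.03, from -0.22 to 0.17. Msx1, with counts near the lower end of the factors, had a difference of -0.0045 and an interval from -0.41 to 0.40. The sign of the fitted difference changed under at least 1 alternative analysis for Msx1, Zeb2, Ets1 and Twist1, so no direction is given for them. The batches differed in sign for 4 of the 9 factors, Msx1, Twist1, Zeb1 and Zeb2, and shared a sign for 5, against 67.2% of all genes tested that shared a sign. Ets1 is counted among the 5 although its libraries of batch 2 were practically equal. Over the factors the intervals reached from -32.7% to 33.1%, the lower limit of Tfap2a and the upper limit of Pax3. These limits are not adjusted for the number of genes tested, and they do not give the smallest change that the adjusted test would call.

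**Figure D2:**
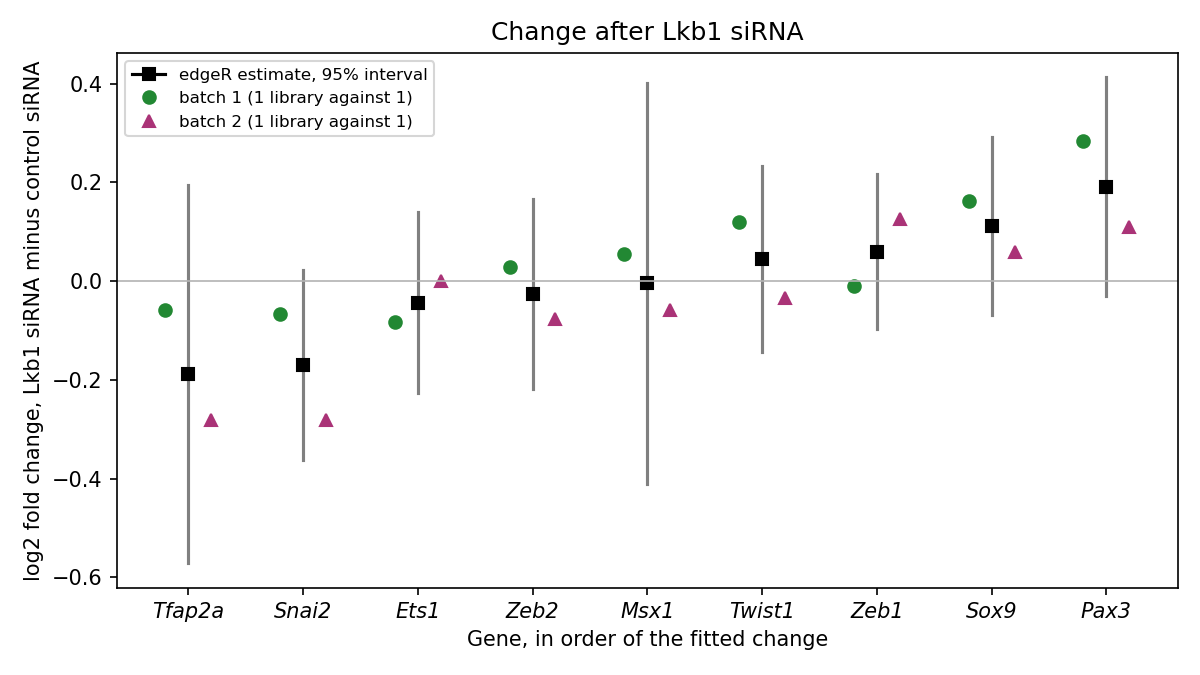
Log2 fold change of each factor, Lkb1 siRNA minus control siRNA; squares with bars are edgeR's fitted value and its 95% interval, and the smaller symbols are the differences within batch 1 and batch 2. Every interval spans 0, and the differences within the batches lie on the same side of 0 for 5 factors.

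The batches differed as well, by amounts of the same order as those between the groups. In the model with both terms, 12.9% of all genes tested were called between the batches by edgeR, 6.3% higher and 6.62% lower in batch 2, and 1 of the 9 factors, Pax3, was among them. The log2 value of Pax3 was 0.19 higher in batch 2 (SE 0.0614, edgeR adjusted p = 0.0207), and its difference between the groups was also 0.19. Ets1 was lower in batch 2 by -0.14 (SE 0.0544) and Zeb2 higher by 0.15 (SE 0.0600), with adjusted p of 0.0615 and 0.0847 in edgeR. The libraries of Ets1 were at 93.3 and 88.1 CPM in batch 1 and at 82.2 CPM in both libraries of batch 2. Those of Zeb2 were at 58.9 and 60.2 CPM in batch 1 and at 67.7 and 64.2 CPM in batch 2. For Msx1, Zeb2 and Ets1 the batches did not overlap, 3 of 9 factors against 42% of all genes tested. In a fit with the batch as the only term, no factor was called by edgeR, and Pax3 differed by 0.19 with an adjusted p of 0.569.

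**Figure D3:**
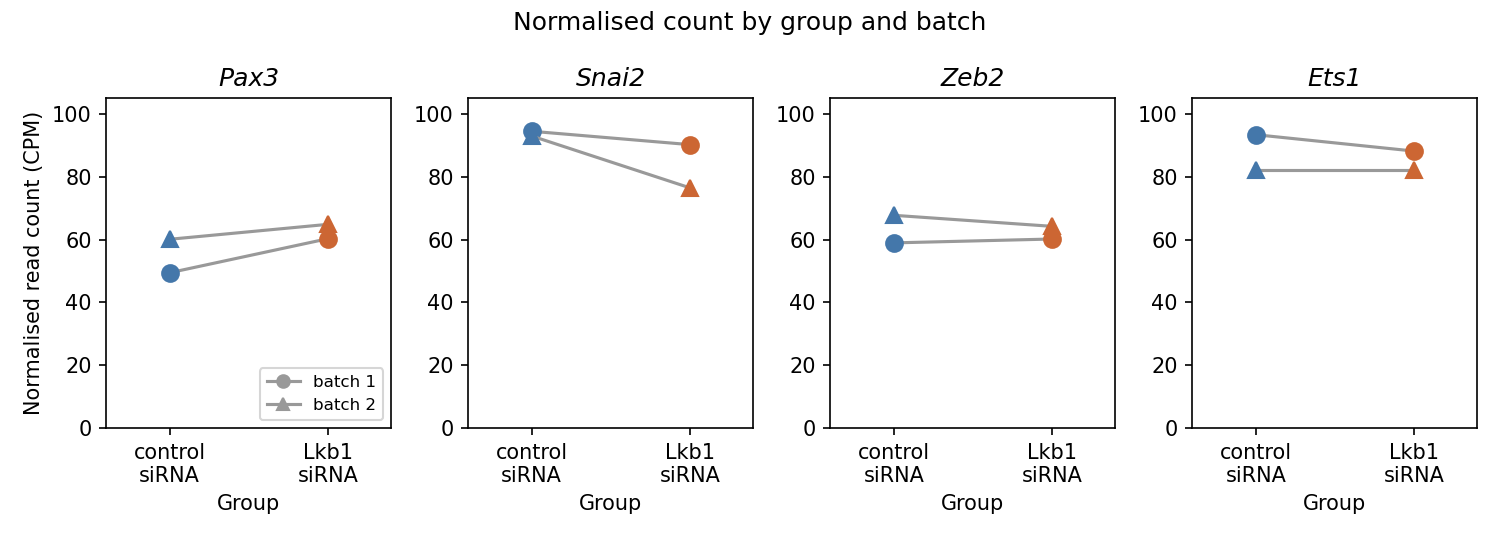
Normalised count of Pax3, Snai2, Zeb2 and Ets1 in CPM, with a line joining the control siRNA and the Lkb1 siRNA library of each batch. Both lines slope upward for Pax3, from 49.5 to 60.3 and from 60.1 to 64.8 CPM, both slope downward for Snai2, and for Zeb2 and Ets1 the batches stay apart in both groups.

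The transcript table held 42 transcripts of the 9 factors, of which Zeb1 alone had 22. None of the 30 that passed the filter was called by edgeR, and 0% of the 34279 transcripts tested were called over the whole table, with or without the replicate block. An unadjusted p under 0.05 in edgeR was reached by 3 of the 30, 1 of Zeb1 and 2 of Zeb2. The share of all transcripts under that limit was not computed, so no result is read from this count. The Zeb1 transcript, XM_030250402, was estimated at 0 and 2.95 counts in the controls and at 23.9 and 190.5 counts after Lkb1 siRNA. Its log2 difference was 6.07 (SE 1.93), with an adjusted p of 0.709 in edgeR, while the 2 of Zeb2 were lower. The values are estimates that divide reads among overlapping transcripts, and the intervals below cover counting error only.

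Pax3 had 2 listed transcripts that differ at the end of the coding sequence, and with it in the end of the protein. The capitals mark the bases at genome positions coded in only 1 of them, after the last 15 bases at shared positions. Both stretches of capitals open with GT, so the sequences part only after these bases. The capitals lie in coding sequence on the minus strand, at chr1:78103311-78103327 for NM_008781 and at chr1:78102804-78102835 for NM_001159520, and the stop codon is left out.
Pax3 NM_008781: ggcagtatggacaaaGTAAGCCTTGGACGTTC
Pax3 NM_001159520: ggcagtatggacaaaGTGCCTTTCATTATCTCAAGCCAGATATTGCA
The coding lengths were 1437 and 1452 bases. Of the 906 to 1216 counts of Pax3 per library, NM_008781 took 61.9% in the batch 1 control (95% Wilson interval 58.7 to 65.0), 61.2% in the batch 2 control (58.3 to 63.9), 62.7% in the batch 1 knockdown library (59.7 to 65.6) and 68.8% in the batch 2 knockdown library (66.2 to 71.4). The last of these stood above the others. The log2 difference between the groups was 0.28 (SE 0.149) for NM_008781 and 0.01 (SE 0.159) for NM_001159520, and neither was called by edgeR.

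Ets1 was counted mostly on NM_011808, which includes an exon that NM_001038642 lacks. The exon, of 261 bases at chr9:32738099-32738359 on the plus strand, belongs to the part of the protein that restrains its binding to DNA. It is shown in capitals between 15 bases of either neighbouring exon, and the junction that skips it is given below it. All of the bases are coding.
Ets1 NM_011808: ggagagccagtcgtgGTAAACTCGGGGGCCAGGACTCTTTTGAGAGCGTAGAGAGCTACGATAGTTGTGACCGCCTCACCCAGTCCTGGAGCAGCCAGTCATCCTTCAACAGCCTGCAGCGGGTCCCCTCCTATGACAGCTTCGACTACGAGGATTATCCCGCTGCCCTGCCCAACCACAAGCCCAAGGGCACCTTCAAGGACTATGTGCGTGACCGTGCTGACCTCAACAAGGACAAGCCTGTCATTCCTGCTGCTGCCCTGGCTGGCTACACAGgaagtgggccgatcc
Ets1 NM_001038642: ggagagccagtcgtggaagtgggccgatcc
The coding lengths were 1320 and 1059 bases. NM_001038642 took 3.22% of the counts of Ets1 in the batch 1 control (95% Wilson interval 2.48 to 4.16), 1.89% in the batch 2 control (1.33 to 2.69), 3.62% in the batch 1 knockdown library (2.80 to 4.67) and 4.15% in the batch 2 knockdown library (3.27 to 5.27). The batch 2 control was the lowest. Its interval overlapped that of the batch 1 control, and the intervals of the other 3 libraries overlapped each other.

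Zeb2 was divided among 6 listed transcripts whose estimates moved between libraries. NM_001289521 was estimated at 558.8, 349.9, 556.8 and 636.9 counts, and NM_001355289 at 248.0, 674.7, 330.4 and 465.9 counts, in the order of control batch 1, control batch 2, knockdown batch 1 and knockdown batch 2. For this pair of transcripts, the one high in 1 control was low in the other, and the estimated counts of the groups overlapped. NM_001355290 was at 90.1, 92.5, 23.8 and 21.3 counts in the same order, with both knockdown libraries below both controls, a log2 difference of -1.97 (SE 0.413) and an adjusted p of 0.687 in edgeR. NM_001355291 was at 77.3, 148.9, 5.46 and 0 counts, also with both knockdown libraries below both controls, and its edgeR adjusted p was 0.695. Neither transcript was called, and the share of all transcripts with groups that do not overlap was not computed.

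To say which crest factors were not expressed, the 10 factors were set beside 64 other transcription factors in 4 lists. Of the 74 factors in all, 37 reached 1 FPKM in at least 1 library, 21 were listed below 1 FPKM in all 4 libraries, and 16 had no row in the gene table used here. The count of 21 became 18 with a limit of 0.5 FPKM.

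Among 25 other border and crest factors, Sox10, which marks migrating crest and glia, and Foxd3, an early crest specifier, had no row, nor had Pax7, Dlx5, Dlx6, Tfap2e and Msx3. A further 7 lay below 1 FPKM in every library: Gbx2 at 0 to 0.09 FPKM, Prdm1 at 0.07 to 0.15, Prdm12 at 0 to 0.05, Sox8 at 0.04 to 0.10, Myb at 0.02 to 0.11, Sox5 at 0.59 to 0.70 and Sox6 at 0 to 0.02. Of the group of Sox8, Sox9 and Sox10, only Sox9 was thus seen above the limit, and no level can be given for Sox10, which had no row. Zic2, a zinc finger factor of the border, was the highest of this list with a row, at 39.0 and 52.5 FPKM in the controls and 47.6 and 57.5 FPKM after Lkb1 siRNA.

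Among 17 other factors of the mesenchymal transition, every gene had a row, and 6 lay below 1 FPKM in every library: Snai3 at 0 to 0.08 FPKM, Gsc at 0.07 to 0.31, Klf8 at 0.79 to 0.94, Foxq1 at 0.12 to 0.25, Meox2 at 0 to 0.06 and Tbx3 at 0 to 0.04. The E protein gene Tcf3, whose product pairs with Twist1, was the highest, between 87.9 and 92.6 FPKM. Of 10 factors of the enteric and autonomic crest, Phox2a, Hand1, Hand2, Tlx2 and Isl1 had no row, and Gata2 at 0.83 to 0.97 FPKM, Insm1 at 0.04 to 0.10 and Sox2 at 0 to 0.02 lay below the limit. Gata3, at 1.19 to 1.59 FPKM, was the highest of these.

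Epithelial factors that oppose the transition were mostly low. Grhl3, Ovol1 and Ovol2 had no row, and Grhl1 at 0.03 to 0.13 FPKM, Grhl2 at 0.05 to 0.19, Elf3 at 0.09 to 0.19 and the splicing factors Esrp1 and Esrp2, both at 0 to 0.02, lay below the limit. Klf5 was the highest of the 12, between 7.05 and 9.86 FPKM, which was below 6 of the 9 factors described here and near Zeb2.

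**Figure D4:**
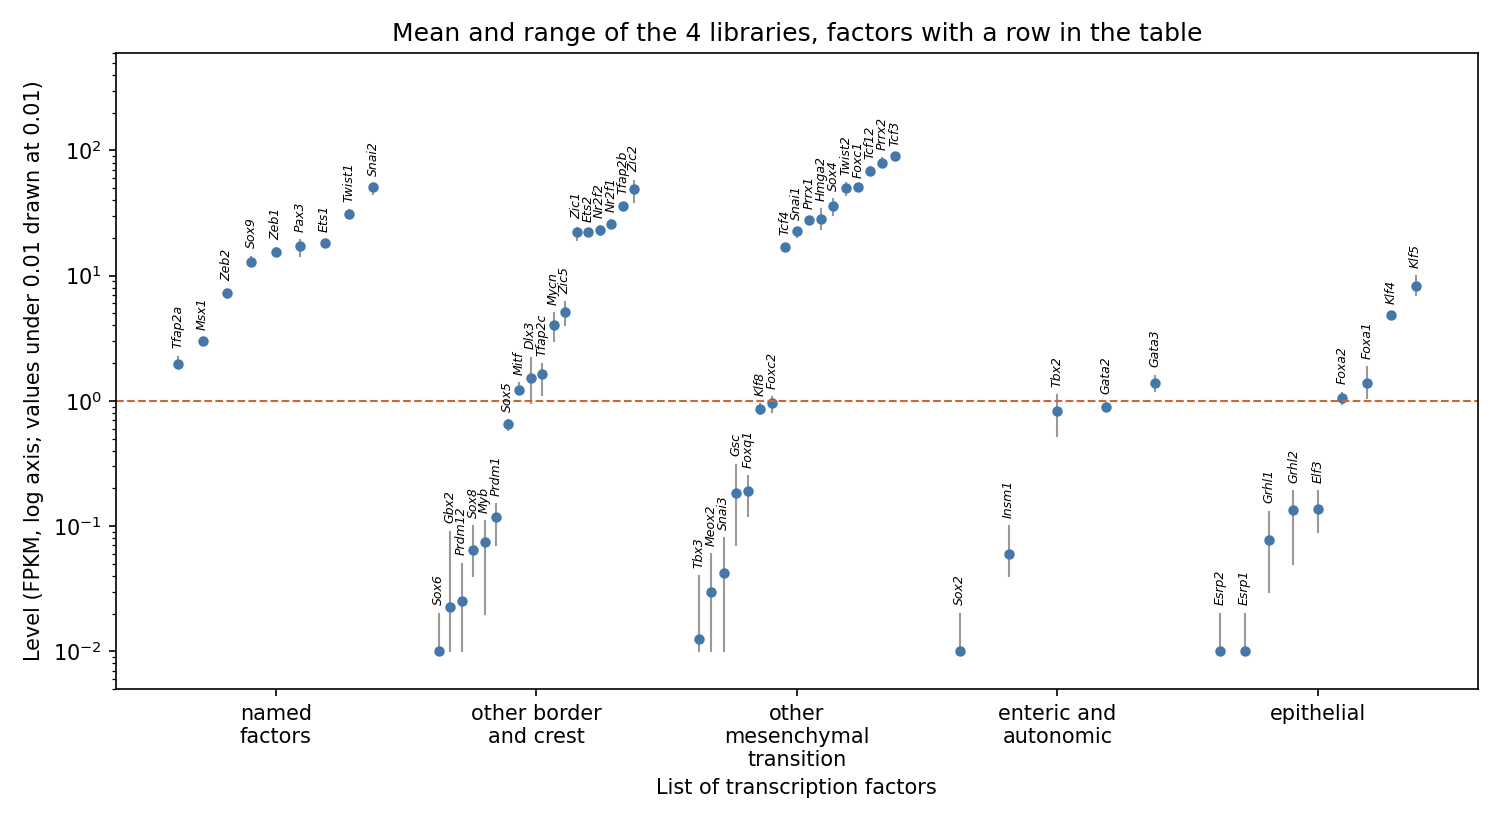
Level of the 58 factors with a row, by list, in FPKM on a log axis; points are the mean of the 4 libraries, bars run from the lowest to the highest library, and the dashed line marks 1 FPKM. All 9 named factors lie above the line, and 21 other factors have all 4 libraries below it.

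No gene of these lists was called in the test of Lkb1 siRNA against control siRNA. The lists were chosen with earlier results of these data known, so their counts are a description and not a test. In the border and crest list, 11 of 13 tested genes had a higher mean after Lkb1 siRNA, with a median of 0.10 on the log2 scale beside 4.9e-04 over all genes, and 3 were called higher and 0 lower with the replicate block, where 6.59% of all genes were called higher. Zic5 was at 4.06 and 4.18 FPKM in the controls and 6.11 and 6.02 FPKM after Lkb1 siRNA, a difference of 0.52 (SE 0.128) with an adjusted p of 0.206 in edgeR, or 5.4e-04 with the replicate block. Dlx3, a homeodomain factor of the border, was low, at 1.34 and 0.96 FPKM in the controls and 2.21 and 1.61 FPKM after Lkb1 siRNA. It differed by 0.70 (SE 0.258), with an adjusted p of 0.363 in edgeR, or 0.0108 with the replicate block. Zic2 differed by 0.17 (SE 0.128), with an adjusted p of 0.663 in edgeR, or 0.00882 with the replicate block. Of the 13 tested genes in the mesenchymal transition list, 9 had a higher mean and 0 were called in either fit, and Twist2, the paralog of Twist1, differed by -3.3e-04 (SE 0.120). Of the 5 epithelial factors tested, all had a lower mean. Foxa1, a pioneer factor, was at 1.46 and 1.86 FPKM in the controls and 1.06 and 1.18 FPKM after Lkb1 siRNA. It was called lower with the replicate block only, by -0.59 (SE 0.208), with an adjusted p in edgeR of 0.356, or 0.0217 with the block. In the enteric and autonomic list Tbx2, a T-box repressor, was the only one of 3 tested genes called with the block. It lay near the limit for expression, at 0.70 and 0.52 FPKM in the controls and 0.97 and 1.11 FPKM after Lkb1 siRNA. Its difference was 0.73 (SE 0.251), with an adjusted p in edgeR of 0.347, or 0.0205 with the block.

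The partners and brakes of the factors were present. Of 20 genes for co-repressors, inhibitors and degradation factors, 18 were above 1 FPKM in at least 1 library, Cited4 had no row and Id4 lay below 1 FPKM. Id3, whose product captures the E protein partners of Twist1, was the highest, at 333.6 and 444.7 FPKM in the controls and 336.0 and 390.0 FPKM after Lkb1 siRNA. The co-repressor genes Ctbp1, Hdac1 and Hdac2, used by the ZEB and Snail repressors, were all between 115.6 and 142.0 FPKM. None of the 18 tested was called in the unblocked fit, and with the block 1 was called higher and 2 lower, near the 13.6% called among all genes in that fit. Ajuba, whose LIM protein binds Snail repressors, was the one called higher, by 0.17 (SE 0.0731, adjusted p in edgeR 0.422, or 0.0212 with the block). Cited2, a co-activator of AP-2 proteins, was lower by -0.19 (SE 0.0754, adjusted p in edgeR 0.397, or 0.00248 with the block), and Id3 was lower by -0.14 (SE 0.122, adjusted p in edgeR 0.693, or 0.0379 with the block).

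The target genes of the repressors were low. Of 20 epithelial genes that the Snail, ZEB and Twist families are known to repress, Cldn3, Cldn4, Cldn7 and Crb3 had no row and 12 lay below 1 FPKM in every library, among them Cdh1, Epcam, Ocln, Krt8, Krt18 and Dsp. The other 4 reached 1 FPKM in at least 1 library. The tight junction scaffold gene Tjp1 was the highest, between 38.4 and 40.4 FPKM, while Patj lay between 1.69 and 2.04 FPKM and Cgn between 1.27 and 1.67 FPKM. Of the 6 tested, 0 were called without the block and 1 with it, where 13.6% of all genes were called. That gene, Llgl2, a polarity gene, was at 0.43 and 0.71 FPKM in the controls and 0.88 and 1.08 FPKM after Lkb1 siRNA, a difference of 0.74 (SE 0.278, adjusted p in edgeR 0.375, or 0.0226 with the block).

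The genes known to be raised in the transition were all expressed, and their means were mostly lower after Lkb1 siRNA. Of 18 tested, 15 had a lower mean, and these 15 were lower in both batches, with a median of -0.12 on the log2 scale. Of all genes tested, 67.2% had the same sign in both batches, in either direction. The list was chosen with earlier results of these data known, so its counts are a description and not a test. None was called by edgeR in the unblocked fit, and with the replicate block 9 were called lower and 1 higher, where 6.99% of all genes were called lower. Vim, which encodes the intermediate filament vimentin, was at 1884 and 1961 FPKM in the controls and 1561 and 1573 FPKM after Lkb1 siRNA, a difference of -0.33 (SE 0.0580, adjusted p in edgeR 0.0908, or 1.03e-13 with the block). Acta2, which encodes smooth muscle actin, was at 229.8 and 219.0 FPKM in the controls and 179.4 and 171.2 FPKM after Lkb1 siRNA, a difference of -0.41 (SE 0.0709, adjusted p in edgeR 0.0908, or 1.59e-14 with the block). The collagen gene Col1a1 differed by -0.35 (SE 0.112) and the matrix gene Tnc by -0.20 (SE 0.0682), each called lower with the block only. Cdh2, which encodes the N-cadherin of mesenchymal cells, was between 28.7 and 30.0 FPKM and was called in neither fit, and Cdh6, a cadherin of the early crest, was the gene called higher with the block, by 0.37 (SE 0.145). Of Snai2, Twist1, Zeb1 and Zeb2, only Snai2 was called lower in that fit. With the same block neither DESeq2 nor limma called Snai2 (adjusted p = 0.655 and 0.230). The difference of Snai2 was uneven between the batches, at -0.07 and -0.28. Whether Snai2 had a part in the lower means of these genes was not tested.

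Of 14 cartilage genes that Sox9 is known to activate, Hapln1 and Snorc had no row and 7 lay below 1 FPKM in every library. Of the 7 tested, none was called in the unblocked fit, where 0.0818% of all genes tested were called. With the block 2 were called higher and 2 lower, where 6.59% of all genes were called higher and 6.99% lower. Acan, the aggrecan gene, was at 9.97 and 8.84 FPKM in the controls and 6.45 and 6.19 FPKM after Lkb1 siRNA, a difference of -0.61 (SE 0.0863, adjusted p in edgeR 0.0573, or 1.46e-19 with the block). Col2a1, the main cartilage collagen gene, was at 1.35 and 1.60 FPKM in the controls and 2.23 and 2.95 FPKM after Lkb1 siRNA, a difference of 0.78 (SE 0.172, adjusted p in edgeR 0.181, or 9.88e-08 with the block). Col11a2, at 0.59 and 0.94 FPKM in the controls and 1.44 and 1.51 FPKM after Lkb1 siRNA, differed by 0.94 (SE 0.206). It was called higher with the block. Col11a1 differed by -0.23 (SE 0.128) and was called lower with the block. Of the 7 tested genes, 5 had a higher and 2 a lower mean, with a median of 0.60 on the log2 scale beside 4.9e-04 over all genes. Col9a3 and Comp, among the higher ones, lay below 1 FPKM in every library. This list too was chosen with earlier results known, so its counts are a description and not a test. The level of Sox9 was not called in either fit. In the same block fit the neuronal genes Tubb3 and Uchl1 and the glial genes Pmp22 and Egr2 were called higher and the glial gene Gas7 lower. The part of other cell types in these differences was not tested.

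**Figure D5:**
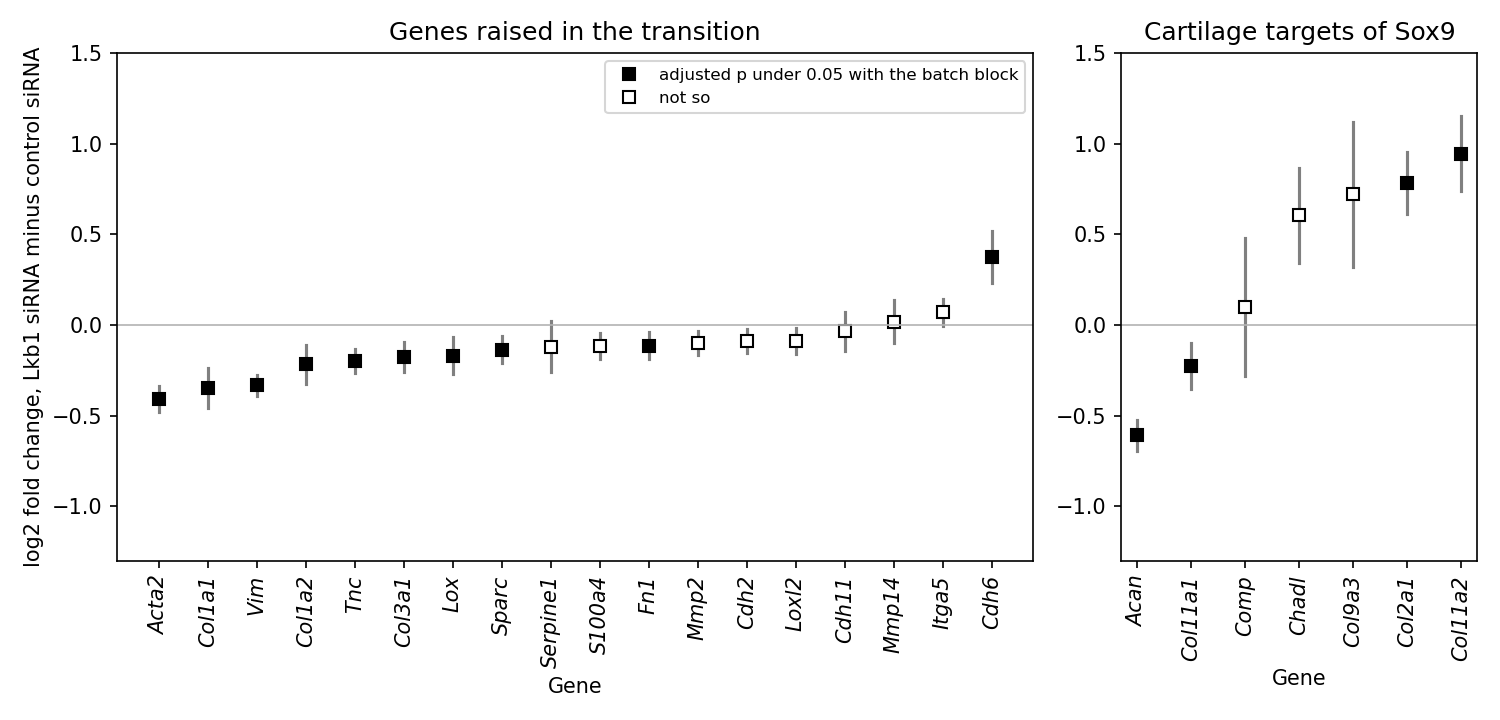
Log2 fold change, Lkb1 siRNA minus control siRNA, for the 18 tested genes raised in the transition and the 7 tested cartilage targets of Sox9; squares are edgeR's fit without the block, bars are 1 SE, and filled squares passed the adjusted p of 0.05 with the batch block. The values run from -0.41 for Acta2 to 0.37 for Cdh6 on the left and from -0.61 for Acan to 0.94 for Col11a2 on the right.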

How the data were processed

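RNA-seq of 4 libraries was analysed, 2 per siRNA group. The build GRCm39 and the tools RSEM 1.2.8, Bowtie2 2.2.5 and HISAT2 2.0.4 are named, without roles, per the submitters' processing notes. The deposited gene and transcript tables hold expected counts, which divide reads between features that share sequence, and FPKM. In 14 gene and 31 transcript cells a doubled decimal point was read as 1 point, 2 symbols turned into dates were restored by gene ID, and 8 other per-sample columns were not used. Expected counts were rounded and entered edgeR 4.0.16 under R 4.3.3 (robust quasi-likelihood, TMM, minimum count 10, Benjamini-Hochberg adjustment over all 12222 genes, threshold 0.05). CPM is edgeR's scaled count, and differences within a batch used a prior count of 0.5. Each SE was derived from the F statistic. Labels give same-numbered libraries a shared batch, so they pair: their deviations from the group means correlated at 0.355 over the genes tested. The blocked fit, with batch as a term, is therefore printed beside the unblocked one. Alternatives used DESeq2 1.42.0, limma 3.58.1, other filters and scalings, and leaving out each library. The factors and the lists were chosen with earlier results of these data known. Genes named besides the 10 factors and Stk11 were, per list, up to 4 with the smallest p, the highest and lowest level and, for factors, all below 1 FPKM or with no row. Those named beyond that rule (such as Cdh2, the co-repressor genes, the marker genes and the absent targets) were chosen after their values were seen. Some genes of the lists are not reported here.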

Additional observations from a re-analysis of the deposited data

How the results depend on the processing

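For single factors, 143 alternative values of the difference between Lkb1 siRNA and control siRNA were computed. Of these, 122 kept direction and call, 4 gained a call and 17 changed sign. The gains were Pax3 and Snai2 with the replicate block, at 0.19 and -0.17 on the log2 scale, and with the length trend removed together with the block, at 0.18 and -0.16 (edgeR adjusted p = 0.0318 and 0.0345). Factors called were 0 without the block, 2 with it and 2 with the length trend removed and the block. Msx1 changed sign to 0.0275 with library size scaling, to 0.0269 in limma on log2(FPKM + 1) with and without the block, to 0.0353 on log2(FPKM + 0.1), and with the length trend removed to 0.0138, or 0.0137 with the block as well. Zeb2 changed sign to 0.00536 with library size scaling, to 0.00789 in limma on log2(FPKM + 1) with and without the block, and to 0.00923 on log2(FPKM + 0.1). Leaving out 1 library in turn moved Msx1 between -0.0814 and 0.078, Ets1 between -0.134 and 0.0508, Twist1 between -0.0217 and 0.113 and Zeb2 between -0.122 and 0.0768. Over all alternatives Pax3 stayed between 0.06 and 0.34, Sox9 between 0.04 and 0.18, Zeb1 between 0.02 and 0.11, Snai2 between -0.29 and -0.05, and Tfap2a between -0.28 and -0.08. Library size scaling moved the median of all genes to 0.0329.

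Over all genes edgeR called 4 higher and 6 lower (686 and 676 at an unadjusted p under 0.05). The numbers were 806 and 854 with the replicate block, 739 and 793 with the length trend removed and the block, 2 and 1 with library size scaling, 13 and 32 with every gene of at least 1 count, 2 and 2 with genes of at least 5 CPM, 16 and 31 with DESeq2, 44 and 80 with DESeq2 and the block, 0 and 0 with limma at either pseudocount, and 320 and 196 with limma and the block. Leaving out 1 library gave 24 to 136 higher and 42 to 143 lower; the lone library was then assumed to vary like the other group. Between the batches edgeR called 770 higher and 809 lower and 1 factor, and 0 and 0 and no factor with batch as the only term, where Pax3 kept a difference of 0.19 (adjusted p = 0.569). The intervals printed for each factor are not adjusted for the number of genes tested, so the adjusted test with 2 libraries per group can miss changes larger than their limits.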

Other observations

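For the 3 factors of at least 10 CPM whose values ranged most over the 4 libraries, the genes with the most similar pattern were sought among 9371 genes of at least 10 CPM, by the Euclidean distance between the centred log2 CPM of the 4 libraries. The distance rests on 4 libraries that share their batches, and it was not tested. For Pax3 the nearest were Adam8 at a distance of 0.0208 and Irgq at 0.0222. For Snai2 they were Paqr3 at 0.0319 and Scand1 at 0.0344. For Zeb2 they were Arl6ip1 at 0.0046 and Ddr1 at 0.0108.

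Among surface markers of the crest, Erbb3, which encodes a receptor for neuregulin, was at 2.05 and 2.36 FPKM in the controls and 1.44 and 1.43 FPKM after Lkb1 siRNA. The difference was -0.65 on the log2 scale (SE 0.136) and it was called lower only with the replicate block (adjusted p in edgeR 0.139, or 7.27e-06 with the block). Of the 11 tested markers of that list, 3 had a higher and 8 a lower mean. Without the block 0 were called, where 0.0818% of all genes tested were called. With the block 0 were called higher and 1 lower, where 6.59% of all genes were called higher and 6.99% lower. Mlana, a melanocyte gene that did not pass the filter on low counts, was at 1.65 and 1.09 FPKM in the controls and 0.76 and 0.26 FPKM after Lkb1 siRNA.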
